A study of Mus musculus with 6 samples.

Results

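The genes that make, carry, store, break down and sense retinoic acid were followed in mouse bladder with and without Get1, which is also called Grhl3 and encodes a transcription factor of the grainyhead-like family, known for its work in covering epithelia. The set held 30 genes, chosen by name for their place in retinoid metabolism, with earlier results of these data known. They were matched by gene symbol to the probe sets of an expression array. Of these, 29 had a probe set and Dhrs9 had none with that symbol. They stood among 18193 genes with a named probe set. The samples were bladders of embryonic day 18.5 mice, 3 labelled Get1 -/- (null) and 3 labelled Get1 +/- (heterozygous), with 1 array each. All animals thus carried at least 1 mutant copy of Get1, and no wild-type animals are part of the comparison. No source used here gives the kind of mutant allele, the strain or whether a sample pooled several bladders, so the p-values measure the spread between these samples.

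Retinoic acid is made from vitamin A in steps. Retinol reaches tissues bound to Rbp4 and transthyretin, enters cells through Stra6, is stored as esters by Lrat or oxidised to retinal by alcohol and retinol dehydrogenases, and retinal is oxidised to retinoic acid by the Aldh1a enzymes. Crabp proteins carry the acid, Cyp26 enzymes degrade it, and receptors of the Rar family, paired with Rxr partners, switch genes on when they bind it. In the bladder, vitamin A is known to be needed for a normal urothelium, which turns squamous when the vitamin is lacking.

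Some of these genes are themselves switched on by retinoic acid through a direct repeat in their promoters, and the promoters of those found to hold it are shown beside their values. The 250 bases before each RefSeq start (GRCm38.p6) were searched on both strands. The search was for a pair of half-sites in the same direction, separated by 5, 2 or 1 bases of any kind. A half-site was AGGTCA itself, the variant AGTTCA, the variant GGGTCA or the variant GGTTCA. A window was at hand for 25 members, with 41 windows in all. Of these 25, Rarb and Cyp26a1 held the repeat with a spacer of 5 bases. That was 2 of the 41 windows, against 0.0883% of 32851 windows of all genes. The repeat with either shorter spacer was in 0 of the 41 member windows, against 0.174% of all windows for 2 bases and 0.164% for 1 base. The windows of Rarb (chr14:16575477-16575726, minus strand) and Cyp26a1 (chr19:37697558-37697807, plus strand) follow 5′ to 3′, with the repeat in capitals.
Rarb: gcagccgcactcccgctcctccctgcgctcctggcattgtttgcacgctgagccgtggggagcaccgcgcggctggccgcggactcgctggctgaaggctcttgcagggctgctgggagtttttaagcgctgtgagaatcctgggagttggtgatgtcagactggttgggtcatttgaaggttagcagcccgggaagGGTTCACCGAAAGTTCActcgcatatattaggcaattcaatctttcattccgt
Cyp26a1: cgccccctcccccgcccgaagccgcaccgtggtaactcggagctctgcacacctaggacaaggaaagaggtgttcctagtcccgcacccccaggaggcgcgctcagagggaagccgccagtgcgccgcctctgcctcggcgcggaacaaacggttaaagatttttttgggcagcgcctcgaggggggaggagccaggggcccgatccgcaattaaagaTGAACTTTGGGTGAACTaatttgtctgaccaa
In Rarb the repeat ran from 53 to 37 bases before the start on the coding strand, and in Cyp26a1 from 32 to 16 bases before it on the other strand.

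The windows of Adh7 (chr3:138217523-138217772, plus strand) and Adh1 (chr3:138277335-138277584, plus strand) are shown because these 2 neighbouring genes had the members' smallest p-values. They were also searched on both strands for AACCNGTT, a form of the site that grainyhead-like factors bind.
Adh7: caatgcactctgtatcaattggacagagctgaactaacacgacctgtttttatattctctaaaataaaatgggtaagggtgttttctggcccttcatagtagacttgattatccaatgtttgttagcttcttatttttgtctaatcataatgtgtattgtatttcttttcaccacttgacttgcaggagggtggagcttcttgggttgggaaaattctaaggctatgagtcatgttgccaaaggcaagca
Adh1: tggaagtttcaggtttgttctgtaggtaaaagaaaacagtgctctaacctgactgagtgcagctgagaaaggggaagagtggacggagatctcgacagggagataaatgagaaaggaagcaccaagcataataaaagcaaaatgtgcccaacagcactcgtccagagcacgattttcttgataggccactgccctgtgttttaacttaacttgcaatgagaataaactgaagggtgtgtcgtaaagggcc
Neither window held any of the sequences searched. AACCNGTT was in 0 of the 41 member windows and in 1.79% of all windows, which says only that these letters are not in these stretches.

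Signals are the authors' deposited probe set intensities, and levels are log2(signal + 16), on which the lowest possible level is 4. Differences are null minus heterozygous, errors of means are SDs, and SE is the moderated standard error from limma. Upper quartiles of signal lay between 335.6 and 372.2 on the 6 arrays, and the 12735 genes tested had a median difference of −0.03. The labels were checked on Grhl3, whose null signals were 76.6, 21.5 and 119.7 and whose heterozygous signals were 143.3, 132.9 and 125.6, so null 3 lay close to the controls. No source used here places this probe set relative to the mutation, so it may check nothing. Markers of bladder smooth muscle and most markers of urothelium were present on all arrays. Among the exceptions, Snx31 read 1.81 to 20.6 in null bladders and Itgb4 read 2.87 on heterozygous 4. Of 10 intestinal markers 7 rose in the null, with a summed signal of 13030 to 21978 in null and 725.0 to 1161 in heterozygous bladders. Of 6 umbrella cell markers 3 fell, with sums of 7010 to 9531 in null and 13064 to 18420 in heterozygous bladders. In whole bladder, fewer cells of a type and less RNA per cell cannot be told apart.

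No retinoid gene passed the test, and the nearest to it were a pair of alcohol dehydrogenases that were lower in null bladders. Of the 29 genes with a probe set 21 were bright enough to be tested, and 0 of the 21 passed at an adjusted p under 0.05 (limma, Benjamini-Hochberg over 12735 genes), where 0.510% of all genes tested passed (0.448% higher and 0.0628% lower in null). At an unadjusted p under 0.05 there were 4 of the 21, Adh1, Adh7 and Stra6 lower and Rbp7 higher in null, against 7.93% of all genes (4.30% lower and 3.63% higher). The null and heterozygous arrays did not overlap for 8 of the 21, against 13.4% of all genes. These were Adh1, Adh5, Adh7, Crabp1, Crabp2, Stra6 and Rxra, which lay lower in null (7 of 21, against 7.36% of all genes), and Rbp7, which lay higher (1 of 21, against 6.07%). The difference was below 0 for 14 of the 21, against 54.9% of all genes, and their median was −0.32.

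**Figure D1:**
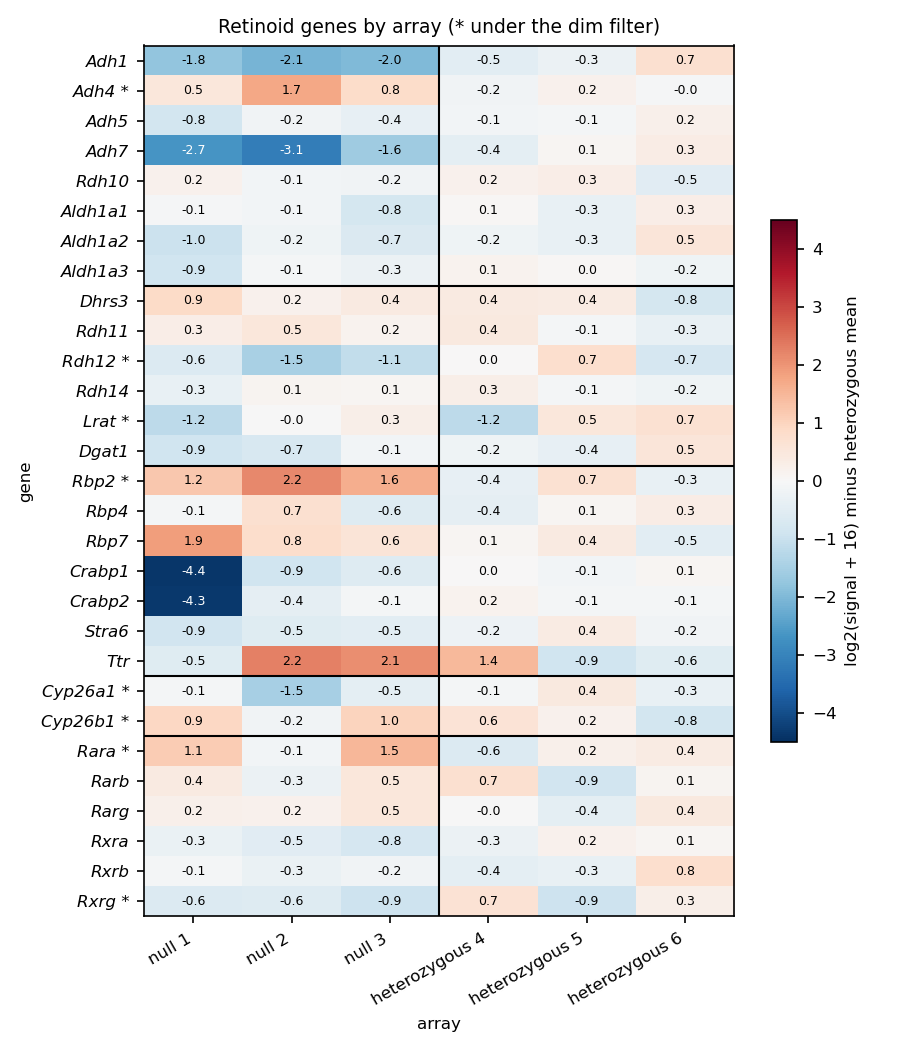
Level of each retinoid gene on each array, as log2(signal + 16) minus the mean of the 3 heterozygous arrays, with genes in rows grouped by role (lines) and arrays in columns; an asterisk marks genes under the dim filter. The darkest fields are Crabp1 and Crabp2 on null 1, and Adh1 and Adh7 are low on all 3 null arrays.

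The first step of synthesis, oxidation of retinol to retinal, can be run by alcohol dehydrogenases. Adh7, the class of this family found in epithelia of the upper digestive tract and skin, had null signals of 41, 25.3 and 103.4 (arrays 1 to 3) and heterozygous signals of 249.4, 366.4 and 436.6 (arrays 4 to 6). The highest null array was thus below the lowest heterozygous one. Null bladders had a mean level of 6.03 ± 0.79 and heterozygous bladders one of 8.48 ± 0.39 (SD, n = 3 each), a difference of −2.45 (SE 0.41, 95% interval −3.40 to −1.51, adjusted p = 0.0623, limma). An exact two-sided permutation test gave p = 0.1, and no smaller value is possible with 3 arrays a group. The gene's other probe set was under the dim filter, with signals from 1.8 to 54.7, and differed by −0.23. With both averaged the difference was −1.34.

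Adh1, a broadly expressed dehydrogenase that oxidises both ethanol and retinol, had signals of 1659, 1327 and 1438 on the null arrays and of 4126, 4757 and 9439 on the heterozygous arrays. The 3 null arrays were close to each other, and heterozygous 6 was the highest of all. Null bladders had a mean level of 10.54 ± 0.16 and heterozygous bladders one of 12.48 ± 0.64 (SD, n = 3 each), a 3.85-fold difference (log2 −1.95, SE 0.33, 95% interval −2.71 to −1.18, adjusted p = 0.0694, limma). The exact two-sided permutation p was again 0.1, the smallest possible. Both genes were lower by these amounts on the null arrays. On these arrays 4 of 6 umbrella cell markers lay lower and 7 of 10 intestinal markers higher, with groups apart. The part of those cells in the result was not tested.

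**Figure D2:**
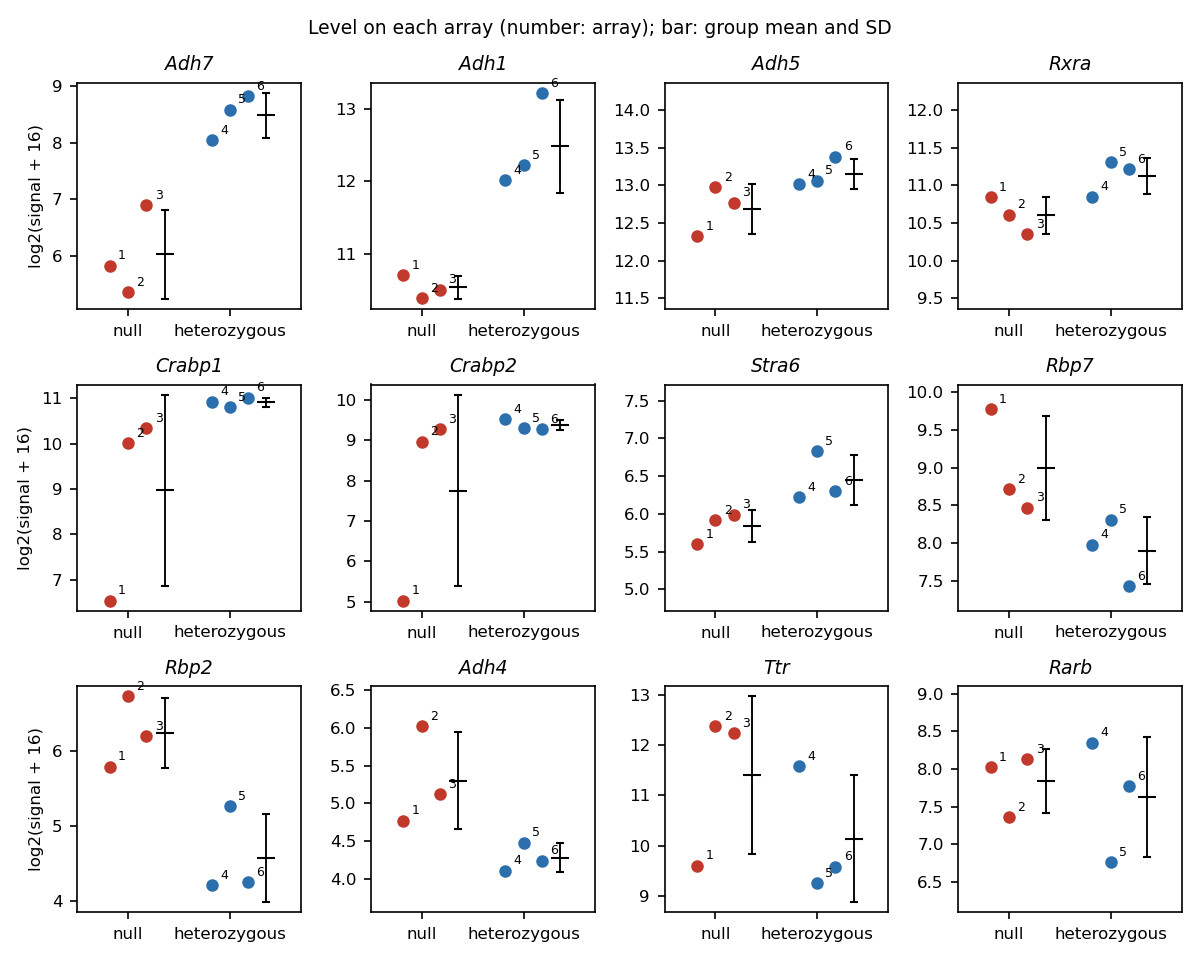
Level, log2(signal + 16), of 12 retinoid genes on each of 3 null and 3 heterozygous arrays (points, numbered by array), with the group mean and SD as bars; vertical axes differ between genes. The groups are apart for Adh7 and Adh1, and for Crabp1 and Crabp2 null 1 lies far below the other 5 arrays.

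Adh1 and Adh7 stood close to the threshold and crossed it under some settings. Adh1 passed in 4 of 15 alternative fits, with an offset of 64, averaged probe sets, array weights or a trended robust prior (adjusted p from 0.0121 to 0.251 over all 15). Adh7 passed in 4 of the 14 that tested it, with an offset of 64, median centring, a trended robust prior or null 3 left out (adjusted p from 0.018 to 0.262 over all 14). The sign held in every one of these fits, with Adh1 between −2.18 and −1.58 and Adh7 between −2.88 and −1.34. The −1.58 of Adh1 came from the fit without heterozygous 6, its highest array. That array also had the lowest array weight, 0.328, against at least 0.773 on the others.

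**Figure D3:**
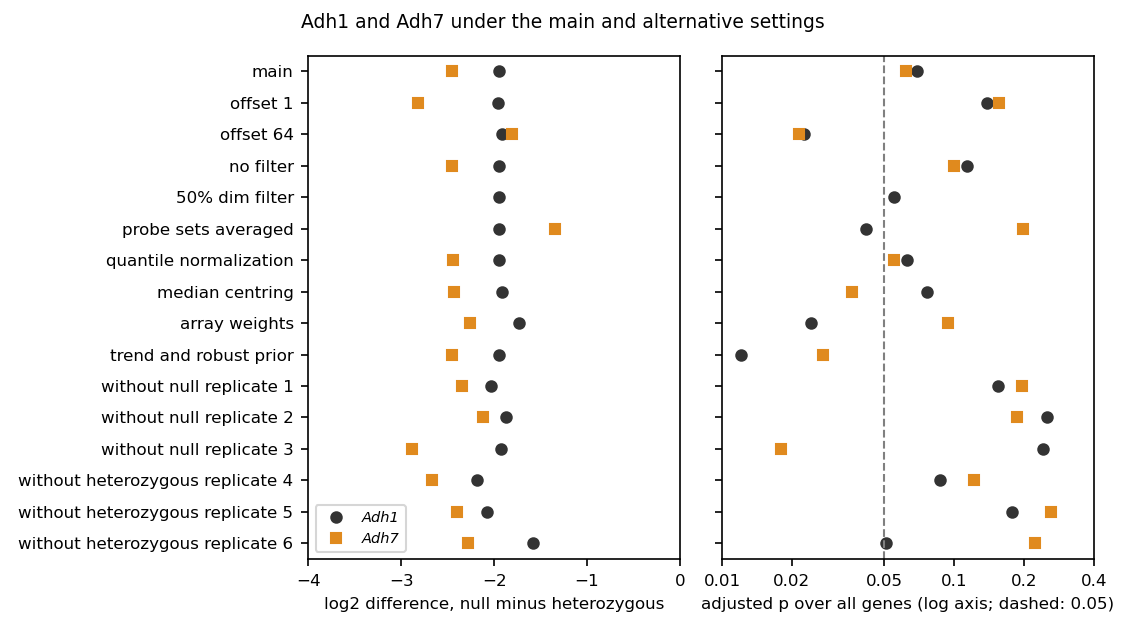
Log2 difference, null minus heterozygous (left), and adjusted p over all genes on a log axis (right) for Adh1 (circles) and Adh7 (squares) under the main setting and 15 alternatives; the dashed line is 0.05. All differences lie below −1, and most adjusted p-values lie right of the line; Adh7 was not tested with the 50% dim filter.

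The other dehydrogenase genes did not share the size of this difference. Adh5, a formaldehyde-clearing member of the family that is made in most tissues, read 5116, 8045 and 6971 in null and 8285, 8500 and 10664 in heterozygous bladders. The groups were apart by a small margin, and the difference was −0.46 (SE 0.25, adjusted p = 0.73, limma). Adh4, a dehydrogenase of liver, was under the dim filter, with signals of 11.3, 48.8 and 18.7 in null against 1.32, 6.33 and 2.92 in heterozygous bladders. Its 3 null arrays were above the 3 heterozygous ones, but 5 of the 6 signals were under 20, and in the fit without a filter the difference was 1.02 (adjusted p = 0.535).

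These genes lie in 1 cluster on chromosome 3, in the RefSeq order Adh7, Adh1, Adh6a, Adh6b, Adh4 and Adh5, so their protein-coding neighbours could be read beside them. Adh6b, between Adh1 and Adh4, was lower by a smaller amount, with signals of 8.1, 28.4 and 45.2 in null and 43.9, 74.6 and 75.7 in heterozygous bladders (difference −0.98, SE 0.37, adjusted p = 0.556, limma), and the groups overlapped. Adh6b was dim: its null arrays alone averaged 5.33, under the filter's cut of 5.80, and it was tested because the heterozygous ones averaged 6.31. Null 1, at 4.59, was near the lowest possible level, so the size of the Adh6b difference depends on the offset. Adh6a was under the dim filter, at 0.16. Outside the cluster, Metap1, an aminopeptidase gene next to Adh5, differed by 0.00 (95% interval −0.49 to 0.49), and Eif4e, which encodes the cap-binding translation factor, by −0.01 (95% interval −0.48 to 0.45). On the other side Trmt10a, a tRNA methyltransferase gene, differed by −0.09 (95% interval −0.61 to 0.42). Mttp, which loads lipid onto apolipoproteins in gut and liver, read 71.7, 400.6 and 675.5 in null and 238.9, 165.6 and 222.1 in heterozygous bladders, so null 1 was the lowest array and null 2 and 3 the highest.

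**Figure D4:**
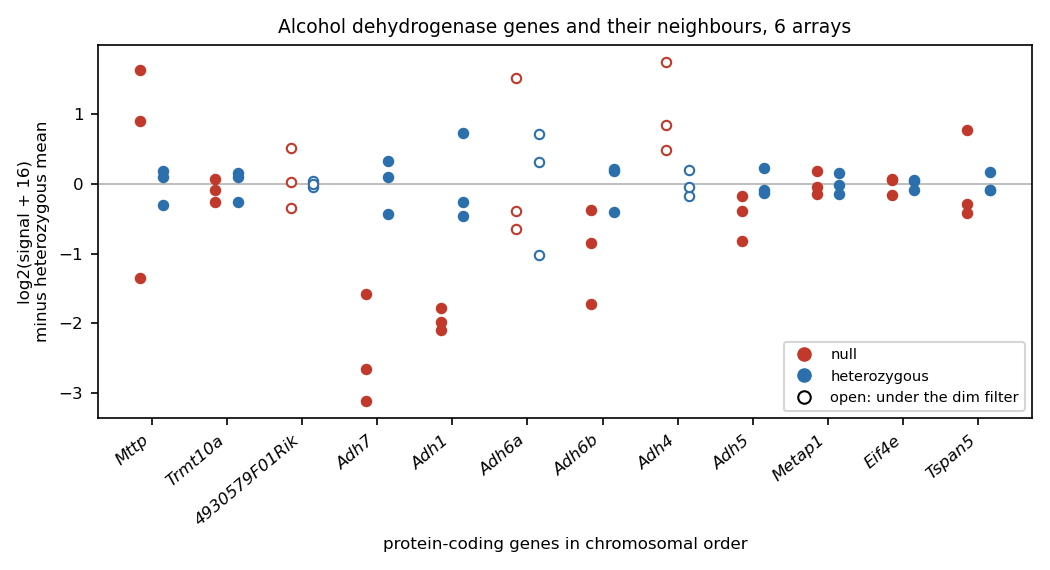
Level of the alcohol dehydrogenase genes and 3 protein-coding genes on each side, in chromosomal order (horizontal axis), as log2(signal + 16) minus the heterozygous mean, for 3 null and 3 heterozygous arrays; open circles are genes under the dim filter. All 3 null arrays lie below the heterozygous arrays for Adh7, Adh1 and Adh5, while Metap1 and Eif4e stay near 0.

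The remaining enzymes of synthesis had smaller differences than Adh1 and Adh7. Rdh10, the retinol dehydrogenase needed for retinal in embryos, read 2144, 1758 and 1698 in null and 2172, 2360 and 1313 in heterozygous bladders, overlapping groups with a difference of −0.02 (95% interval −0.66 to 0.62). A second Rdh10 probe set differed by −0.63, with groups apart (95% interval −1.16 to −0.09, adjusted p = 0.637 over all probe sets, limma). Its interval overlapped that of the first. The 3 retinal dehydrogenases that form retinoic acid had negative differences and overlapping groups. Aldh1a2, the embryonic mesenchymal form, read 328.8, 577.3 and 411.0 in null and 571.5, 514.1 and 950.5 in heterozygous bladders (−0.59, adjusted p = 0.722, limma). Aldh1a3, a form of epithelia, differed by −0.43 and Aldh1a1 by −0.32 (adjusted p = 0.768 and 0.858, limma). All 7 tested synthesis genes had a difference below 0, against 54.9% of all genes, with a median of −0.46. Rdh10 was among the 7 although its sign changed in 5 alternative fits. Adh4, under the dim filter and so not counted, differed by 1.02.

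Genes that turn retinal back to retinol or store it as ester had mixed signs. Dhrs3, a retinal reductase that retinoic acid induces, read 2707, 1659 and 1965 in null and 1960, 1911 and 839.9 in heterozygous bladders, a difference of 0.49 (SE 0.37, adjusted p = 0.818, limma). Null 1 was its highest and heterozygous 6 its lowest array, and the groups overlapped. Rdh11 and Rdh14, further reductases, differed by 0.32 and −0.03 (adjusted p = 0.841 and 0.991, limma). Dgat1, which can esterify retinol beside its role in triglyceride synthesis, differed by −0.58 (adjusted p = 0.734, limma), while its other probe set, a dim one with signals from 1.04 to 89.3, differed by 1.02. Lrat, the main retinol esterifying enzyme, and Rdh12 were under the dim filter, with signals of at most 63.8 and 74.6 on any array over both probe sets of each. In the fit without a filter Rdh12 differed by −1.06 (unadjusted p = 0.035, adjusted p = 0.624, limma) and Lrat by −0.31, and the groups overlapped for both. The other Rdh12 probe set differed by −0.05. The median of the 4 tested genes was 0.14.

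Among carriers of retinoic acid, Crabp1 and Crabp2 were low on a single null array. Crabp1, which binds retinoic acid in embryonic mesenchyme and neural cells, had null signals of 77, 1021 and 1278 and heterozygous signals of 1939, 1783 and 2056. Crabp2, which delivers retinoic acid to its receptors, had 16.7, 480.4 and 604.6 on the null and 718.5, 611.8 and 606.0 on the heterozygous arrays. Both genes were by far lowest on null 1, and on null 2 and 3 Crabp1 stayed under every heterozygous array, whereas Crabp2 on null 3 was level with heterozygous 6.

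The differences were −1.96 for Crabp1 (SE 0.89, adjusted p = 0.645, limma) and −1.61 for Crabp2 (SE 0.99, adjusted p = 0.766, limma). Without null 1 they were −0.74 (adjusted p = 0.66) and −0.25 (adjusted p = 1), so that array carried most of both. Null 1 is also the array whose title has another first number than the other 5. On it the 4 measured neuron and glia markers summed to 586.7, against 872.0 and 1314 on null 2 and 3 and 950.8 to 1703 in heterozygous bladders. Th, the catecholamine enzyme of that list, read 1.39 on null 1, and Gap43 read 177.3 there, against 294.2 to 745.4 elsewhere. Tubb3 and Sox10 lay within their heterozygous ranges on null 1. The 5 mesothelial markers summed to 2355 on null 1 and to 2830 to 7373 on the other arrays. Of these, Wt1 read 505.9 on null 1 and 1553 to 4106 elsewhere. Msln, by contrast, read 569.8 on null 1, close to 582.6 and 577.6 on null 2 and 3 and above the 62.4 to 268.3 of heterozygous bladders, and Upk3b, Lrrn4 and Muc16 lay within their heterozygous ranges. Their part in the Crabp values was not tested. Stromal markers on null 1 summed to 82274, against 86936 to 104987 in heterozygous bladders.

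Retinol carriers and the uptake receptor had differences of either sign. Rbp7, a cellular retinol-binding protein of endothelium and fat, read 859.1, 403.2 and 339.5 in null and 235.9, 300.9 and 156.3 in heterozygous bladders. Every null array was above every heterozygous one, with null 1 the highest, and the difference was 1.08 (SE 0.39, 95% interval 0.18 to 1.98, adjusted p = 0.534, limma). Without null 1 it was 0.69 (adjusted p = 0.917). The 6 endothelial markers differed among themselves. Their sum, most of it Tek, was 2014 to 2852 in null and 2823 to 3790 in heterozygous bladders, and 4 of the 6 had a difference below 0. Cldn5 lay lower in null with groups apart (170.6 to 418.2 against 469.2 to 581.5, difference −0.98, adjusted p = 0.495, limma). Pecam1 differed by −0.83, Tek by −0.39 and Emcn by −0.05. Cdh5, the cadherin of endothelial junctions, lay higher in null with groups apart (59 to 66.8 against 37.9 to 55.9, difference 0.41, adjusted p = 0.722, limma), and Kdr differed by 0.16. The part of endothelial cells in the Rbp7 values was not tested.

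Stra6, the membrane receptor that takes up retinol, was dim, with 32.6, 44.4 and 47.8 in null and 58.4, 97.6 and 62.7 in heterozygous bladders. The groups were apart and the difference was −0.61 (SE 0.25, adjusted p = 0.601, limma). Rbp4, which carries retinol in blood, read 550.3, 978.1 and 391.0 in null and 439.9, 633.3 and 742.3 in heterozygous bladders, with a difference of 0.01 (95% interval −0.83 to 0.85).

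Ttr, transthyretin, the partner of Rbp4 in blood, split the arrays across genotypes. Its brightest probe set read 762.4, 5344 and 4824 in null and 3076, 592.7 and 750.4 in heterozygous bladders, so that null 2, null 3 and heterozygous 4 were high and the other 3 arrays low. The difference was 1.27 (SE 0.85, adjusted p = 0.791, limma), and the other 3 probe sets gave 1.20 to 1.40. Without null 1 it was 2.17 and without heterozygous 4 it was 2.00 (adjusted p = 0.6 and 0.54, limma). Liver markers moved with it on heterozygous 4, where Alb, the gene of serum albumin, read 995.4, against 124.2 and 43.9 on the other heterozygous arrays, and the 7 measured liver markers summed to 3167. On null 2 and 3 Alb read 1.91 and 74, while Apoa1, made by both liver and gut, read 814.5 and 1262. The part of liver or gut RNA in the Ttr values was not tested.

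Rbp2, the retinol-binding protein of absorptive gut cells, was under the dim filter on its mean over all arrays. It read 39.2, 90.2 and 57.4 in null and 2.53, 22.2 and 3.03 in heterozygous bladders, with no overlap. In the fit without a filter the difference was 1.67 (SE 0.38, unadjusted p = 0.0027, adjusted p = 0.254, limma), and since 2 of the 3 heterozygous levels lay near the lowest possible one, its size depends on the offset. Of 10 intestinal markers 7 lay higher in null with groups apart, among them Vil1, which bundles actin in microvilli (3.72), and Cdh17, an intestinal cadherin (3.02). Cdh17 averaged 5.26 in heterozygous bladders, under the filter's cut of 5.80, and Fabp1, Cdx2, Tff3 and Guca2a, also of the 7, lay under it there too. These were tested through their null arrays, and the sizes of their differences depend on the offset. Fabp2 and Slc26a3 had overlapping groups, with Fabp2 at 38.3 on null 1 against 3.15 to 53.7 in heterozygous bladders. Krt20 differed by −0.35. Whether intestinal cells made the Rbp2 signal was not tested.

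**Figure D5:**
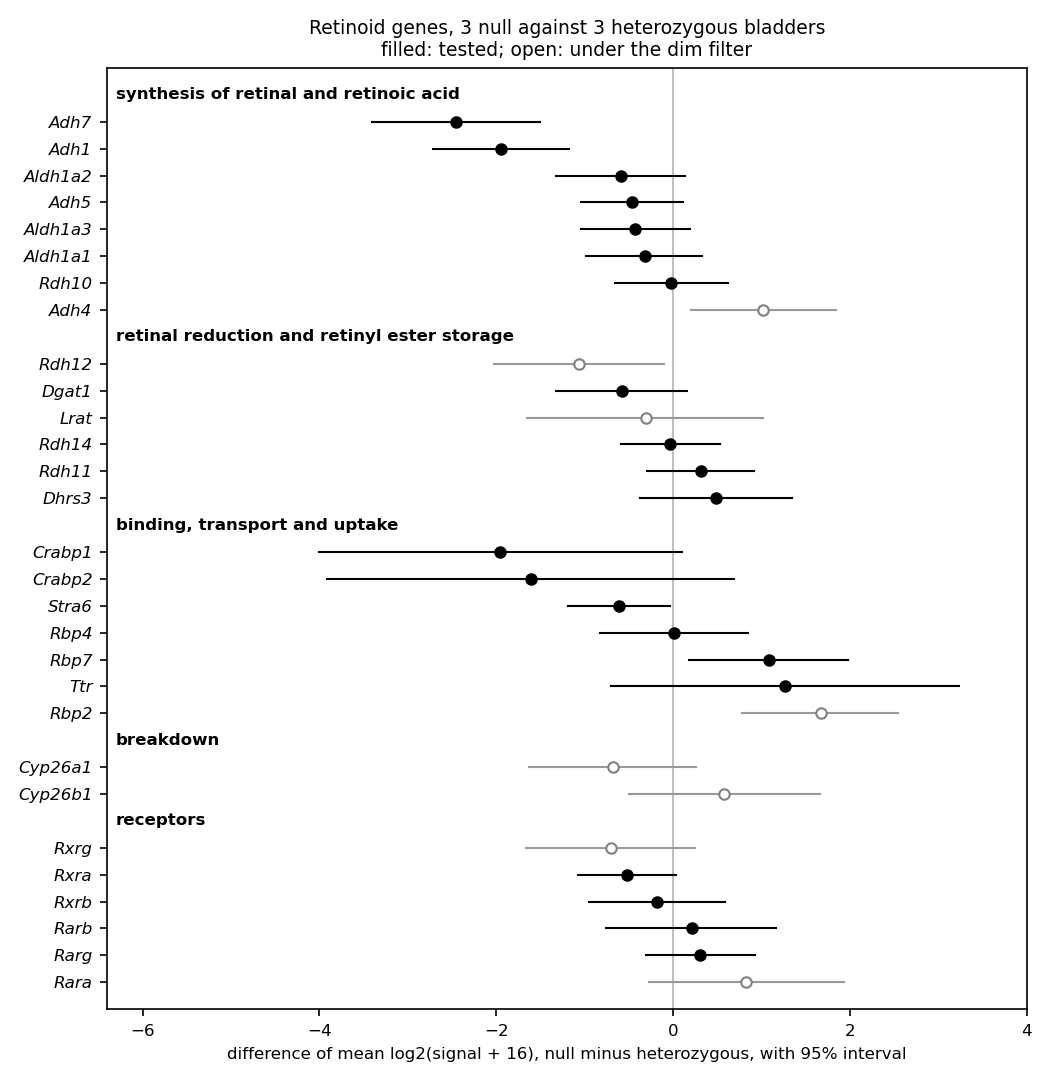
Difference of mean log2(signal + 16), null minus heterozygous, with its 95% interval for the 29 retinoid genes with a probe set, grouped by role; filled points were tested and open points were under the dim filter. The intervals of Adh7 and Adh1 lie furthest below 0, and those of Crabp1, Crabp2 and Ttr are the widest.

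Cyp26a1 and Cyp26b1, the enzymes that clear retinoic acid, were both under the dim filter of the gene-level fit. Cyp26a1, whose promoter repeat is printed above, read 31.4, 1.86 and 20.7 in null and 31.6, 51.6 and 24.1 in heterozygous bladders, and Cyp26b1 read at most 56.1 on any array. The groups overlapped for both. In the fit without a filter the differences were −0.68 for Cyp26a1 (adjusted p = 0.787, limma) and 0.58 for Cyp26b1 (adjusted p = 0.859, limma). Cyp26b1 passed the filter where every probe set was tested alone, with an adjusted p of 0.851.

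Of the 6 receptor genes 4 were tested and 0 passed. Rarb, the other gene with the promoter repeat and itself induced by retinoic acid, read 246.0, 147.7 and 264.3 in null and 310.4, 93.3 and 202.1 in heterozygous bladders. Its heterozygous arrays spanned the whole null range, and the difference was 0.21 (95% interval −0.76 to 1.17, adjusted p = 0.954, limma). Rarg, the receptor of epidermis and other surface epithelia, differed by 0.31 (adjusted p = 0.856, limma).

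Rxra, the main partner receptor in skin and other epithelia, read 1821, 1542 and 1292 in null and 1827, 2524 and 2360 in heterozygous bladders. Null 1 and heterozygous 4 nearly touched, and the difference was −0.52 (SE 0.24, 95% interval −1.07 to 0.03, adjusted p = 0.643, limma). A second, dim Rxra probe set read 13.7, 16 and 10.1 in null and 49, 62.1 and 37.7 in heterozygous bladders, a difference of −1.15 (adjusted p = 0.281 over all probe sets, limma). Its null levels lay near the lowest possible one, so it passed the dim filter through the heterozygous arrays alone and its size depends on the offset. Rxrb differed by −0.18 (adjusted p = 0.951, limma), with heterozygous 6 at 999.7 above all other arrays. Rara and Rxrg were under the dim filter, with signals of at most 66.9 and 38.5, and their groups overlapped. In the fit without a filter they differed by 0.83 and −0.70 (adjusted p = 0.781 and 0.785, limma).

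Beyond these members, 58 further genes of retinoid handling and response were read in the same fit. Of them 47 had a probe set and 30 were tested, and 0 of the 30 passed. At an unadjusted p under 0.05 there were 3 of the 30, against 7.93% of all genes, and the groups did not overlap for 2 of the 30, against 13.4%, so neither count stood above the background by more than 1 gene. The median difference was −0.01. Of 5 tested further retinol and retinal enzymes, Aldh1a7, a close relative of Aldh1a1, had the smallest p, with signals of 1190, 1359 and 1659 in null and 2109, 1699 and 3197 in heterozygous bladders (−0.69, adjusted p = 0.603, limma). The groups were apart by a small margin, and Rdh5, a retinol dehydrogenase of the eye and other tissues, followed at −0.54. Of 6 tested genes of carotenoid and ester handling, uptake and carriage, Retsat, which saturates retinol, differed by 0.37 and Lpl, lipoprotein lipase, by −0.16.

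Receptor coregulators and genes induced by retinoic acid were also without a call. Of 8 tested coregulators the smallest p was that of Zfp423, a zinc finger protein that assists retinoic acid receptors, at −1.03 (adjusted p = 0.551, limma), followed by the acetyltransferase Ep300 at 0.45. Of 11 tested genes known to be induced by retinoic acid 6 had a difference below 0 and 5 above, with a median of −0.01. Foxa1, a transcription factor of urothelium and gut, read 3114, 1979 and 2691 in null and 1852, 1633 and 1295 in heterozygous bladders, with groups apart (0.69, adjusted p = 0.553, limma). Nr2f1, a nuclear receptor of mesenchyme, differed by −0.62 (adjusted p = 0.734, limma). It read 554.0 on null 1 and 1051 to 1627 elsewhere, and without null 1 the difference was −0.26. Cdx1, a retinoic acid target and a regulator of intestinal fate, was under the dim filter, and was named after its values were seen. It read 39.9, 39.1 and 29 in null and 1.47, 6.95 and 1.02 in heterozygous bladders (1.45, adjusted p = 0.0949 in the fit without a filter, limma). Its heterozygous levels of 4.09 to 4.52 were close to the minimum of 4, and the Cdx1 difference therefore changes with the offset. Cdx1 and 7 of 10 intestinal markers were higher on the same arrays, as any gene higher in null would be. The part of intestinal cells in the Cdx1 values was not tested.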

How the data were processed

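RNA of mouse bladder at embryonic day 18.5 was measured on 6 arrays, grouped by genotype from the sample titles, which number null arrays 1 to 3 and heterozygous arrays 4 to 6. The deposited values are probe set intensities on a linear scale for which the submitters' processing notes name Affymetrix Expression Console 1.1 together with PLIER 2.0. No source used here gives the authors' background step, normalization or genome build. The deposited values are given for probe sets named as on a 3′ array. The labels' labelling protocol, however, is one for whole-transcript arrays, and how the RNA was labelled could not be settled. The platform annotation gave 1 symbol for 34945 of 45101 probe sets. Of several probe sets of a gene, the one brightest on average over the 6 arrays stood for it. After log2(value + 16) the 30% of genes with the lowest mean (under 5.80, a signal of 39.7) were left out, and 12735 genes were fitted with limma 3.58.1 (R 4.3.3, lmFit and eBayes, two-sided, Benjamini-Hochberg). The neighbouring genes and the promoter search were added after values had been seen. The offset understates changes of dim genes.

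Members and lists were chosen with earlier results of these data known. Named in full were members with groups apart, the 4 smallest p-values and the 3 largest differences, and 2 genes of each pathway list; Rdh10, Aldh1a2, Dhrs3, Rbp4, Ttr, Rarb, Rxrb and the dim members were described beyond that, for their roles or after their values were seen. Alternatives changed the offset, filter, probe set rule, normalization, weights, variance prior and the arrays included. The fit was tested on simulated data for null against heterozygous (12735 genes), where 12.5%, 58.8% and 95.7% of genes changed by 1, 2 and 4 on the log2 scale were called. Promoter sequences are RefSeq's, and 25 of 30 members matched. The number of arrays limits the precision.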

Additional observations from a re-analysis of the deposited data

How the results depend on the processing

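Of the 21 tested retinoid genes, 14 kept the sign of their difference in all 15 alternative fits by gene (or 14, where a filter removed the gene). Members called lower numbered 0 in the main setting, 2 with an offset of 64 or a trended robust prior, and 1 with probe sets averaged, median centring or array weights. With 1 array left out the number was 0 to 1, the 1 being Adh7 without null 3. Members called higher and pathway genes called numbered 0 in every fit. The counts over all genes, 57 higher and 8 lower, were 36 and 5 with an offset of 1, and the lower count was 5 with the 50% dim filter. With 1 array left out they ranged from 38 to 54 and from 5 to 9. Sign changes were confined to differences that no fit called. Rdh10 became 0.00 with median centring and 0.01 to 0.14 without null 2, null 3, heterozygous 4 or heterozygous 5 (0.01, 0.04, 0.08 and 0.14), with −0.28 the lowest with 1 array left out. Rdh14 became 0.06 with probe sets averaged, 0.12 without null 1, 0.11 without heterozygous 4 and 0.29 on another probe set. The opposite ends of the ranges with 1 array left out were −0.13 for Rdh14, 0.30 for Rbp4, 0.57 for Rarb, −0.40 for Rxrb and −0.41 for Lpl. Rbp4 became −0.34 without null 2 and −0.20 without heterozygous 4, Rarb −0.22 without heterozygous 5, and Rxrb 0.06 with array weights and 0.20 without heterozygous 6. With probe sets averaged Dgat1 became 0.22, Rarg −0.06 and Lpl 0.01. Lpl was 0.07 with array weights and 0.04 without heterozygous 6. On other probe sets Aldh1a3 was 0.04, Dgat1 1.02, Retsat −0.18 and Lpl 0.18. The causes were not tested. With every probe set tested alone, 0 member probe sets passed. No paired analysis was possible because the replicate numbers of the groups do not overlap. Genes near the lowest level have differences that depend on the offset.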
